A study of Homo sapiens with 4 samples.

Results

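The genes that write and remove methylation on lysine 4 of histone H3 were examined for the mark itself, trimethylated H3K4 (H3K4me3), at their own start sites. The set held 10 genes: KMT2A, KMT2B, KMT2C, KMT2D, SETD1A and SETD1B, which encode methyltransferases, ASH2L and WDR5, which encode shared subunits of the methyltransferase complexes, and KDM5A and KDM5B, which encode demethylases. They were chosen by function, and a peak was assigned to a gene when at least 1 bp of it lay within 2 kb either side of a fixed hg19 start site. This took 14 of the 23588 peaks of the knockout list and 10 of the 36677 peaks of the control list. Chromatin immunoprecipitation and sequencing (ChIP-seq) was run on MDA-MB-231, a human cell line from triple-negative breast cancer, with the genotypes ARID1A knockout and control. ARID1A is a subunit of the BAF (SWI/SNF) chromatin remodelling complex. Each genotype had 1 immunoprecipitate (IP) with an antibody to H3K4me3 and 1 library described as input but labelled with IgG as its antibody, 4 libraries in all. The sources used here do not give whether the knockout was a single clone or a pool. The labels of 3 libraries write the cell line with another last digit, and inside the knockout list the library is called K6, so that list was tied to the knockout by its name alone.

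Sequencing gave 13391724 tags for the knockout IP and 17890122 for its input, against 27748061 tags for the control IP and 14878873 for its input. The lists differ as wholes: peaks took up 99.4% of the IP tags and had a median width of 300 bp in the knockout, against 62.1% and 2968 bp in the control. With 1 IP per genotype no difference has a replicate check, no test was made, and every interval below is an exact 95% interval that covers counting error only. The genotype cannot be told apart from any other difference between these libraries.

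H3K4 methylation is deposited by the COMPASS family of complexes, in which a catalytic SET-domain protein works with a core that includes WDR5, a WD-repeat scaffold, and ASH2L, which stimulates catalysis. SETD1A and SETD1B are known for the bulk of promoter trimethylation, KMT2A (MLL1) and KMT2B (MLL2) for trimethylation at CpG-rich promoters that include developmental genes, and KMT2C (MLL3) and KMT2D (MLL4) mainly for monomethylation at enhancers. KDM5A and KDM5B remove the trimethyl and dimethyl marks. H3K4me3 itself is found mainly around the start sites of active genes with CpG-rich promoters.

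All 10 start sites lay inside a broad, tag-rich control domain, while the knockout list had narrow peaks near 8 of them and none near SETD1A and SETD1B. The control domains were 4902 to 25956 bp wide with a median of 8003.5 bp, and each held 846 to 5524 IP tags, with a median of 2024. By tags, 7 of the 10 were among the top 10% of the control list, and also 7 of the 10 by width. Even the weakest, that of SETD1A, had more tags than 79.9% of control peaks. The 14 knockout peaks were 300 to 1271 bp wide with a median of 331 bp, and all 14 lay inside the control domain of their gene. That last count was largely set by the rule. The control domains of these 8 genes spanned the whole 2 kb window on both sides, except downstream at KMT2D, where the domain reached 658 bp. In the whole knockout list 60.3% of peaks lay inside a control peak, which is therefore not a like comparison. Of the 14, 6 were exactly 300 bp wide, which is the fragment length set in the peak caller, against 55.0% of all knockout peaks.

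**Figure D1:**
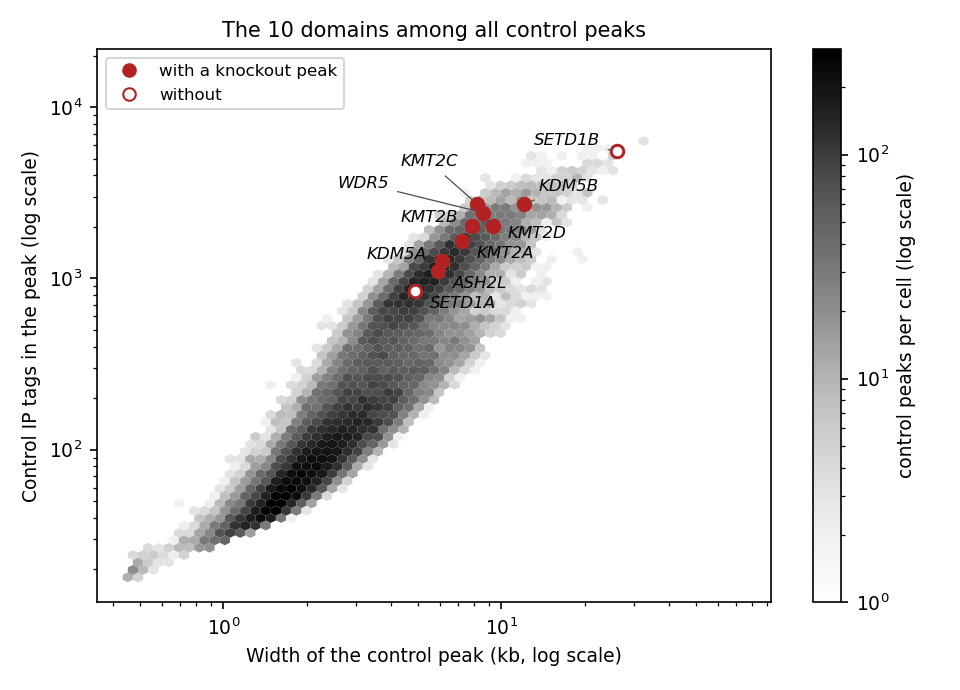
Width of each control peak in kb (x axis) and its control IP tags (y axis), both on log scales, for all 36677 control peaks (grey cells, darker with more peaks) and the 10 domains of the H3K4 methylation genes (red circles, filled where a knockout peak lies within 2 kb of the start site). The 10 domains sit at the wide, tag-rich end of the control list, and the open circles, SETD1A and SETD1B, have the fewest and the most tags of the 10.

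The count of 8 in 10 has to be read against the control list. Of all control peaks, 28.4% held a knockout peak (28.0 to 28.9%). Among the 7384 control peaks with at least as many tags as the SETD1A domain, 77.0% did (76.0 to 77.9%), a background chosen after the values were seen. The share among the 10 genes was therefore near that of other strong control peaks. Of the 8 genes with a knockout peak, 5 had more than 1, against 27.4% of all control peaks that held any and 41.0% of those with at least the tags of the SETD1A domain.

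**Figure D2:**
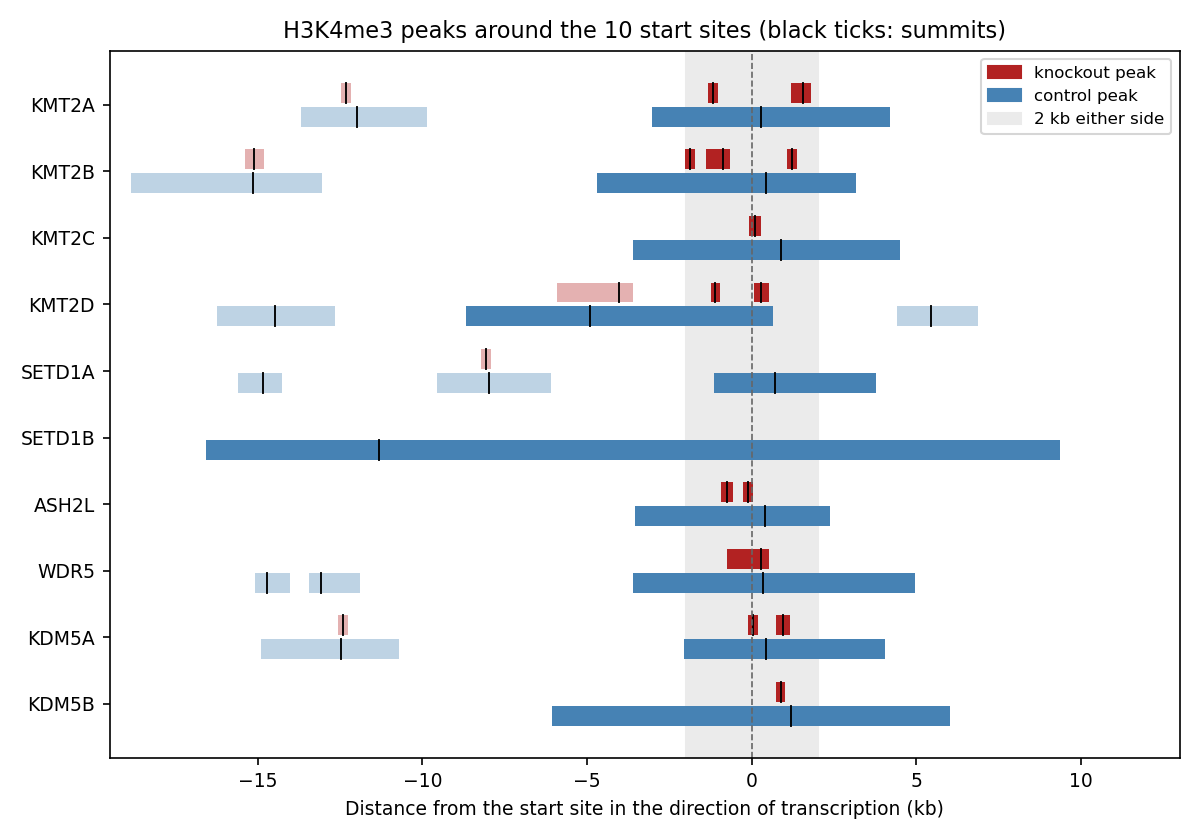
Peaks around the 10 start sites, drawn by their distance in kb from the start site in the direction of transcription, with knockout peaks (red) above control peaks (blue) for each gene. Black ticks mark summits, the grey band marks 2 kb either side, and pale bars are peaks outside it. Knockout peaks are short stretches inside long control domains, and the rows of SETD1A and SETD1B have no red bar in the band.

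KMT2A and KMT2B, paralogs with a CXXC domain that binds unmethylated CpG, had the same arrangement: knockout peaks on both sides of the start site and none on it. This arrangement was not particular to them, since KMT2D had it too. At KMT2A (start site chromosome 11, 118307205) the knockout IP had 117 tags (97 to 140) in a 300 bp peak with its summit 1166 bp upstream and 923 tags (864 to 985) in a 616 bp peak with its summit 1569 bp downstream. The control IP had 1651 tags (1572 to 1733) in 1 domain of 7221 bp, from 118304172 to 118311392, with its summit 272 bp downstream. The knockout peaks thus flanked the position where the control signal was highest.

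At KMT2B (chromosome 19, 36208921) the knockout IP had 546 tags and 379 tags in peaks with summits 1864 and 860 bp upstream, and 1191 tags (1124 to 1261) in a 301 bp peak with its summit 1229 bp downstream. The control IP had 2012 tags (1925 to 2102) over 7869 bp, from 36204229 to 36212097, with its summit 432 bp downstream. The downstream peak had the most tags at both genes. The outermost KMT2B peak was also the one nearest the limit of the window, from 2013 to 1714 bp upstream. The promoter windows of these genes, from RefSeq on GRCh38.p14 (chr11:118436242-118436541 and chr19:35717753-35718052, both plus strand), are shown because the start sites lay outside every knockout peak. They run from 250 bases before to 50 bases after an annotated start, and capitals mark CpG dinucleotides.
KMT2A: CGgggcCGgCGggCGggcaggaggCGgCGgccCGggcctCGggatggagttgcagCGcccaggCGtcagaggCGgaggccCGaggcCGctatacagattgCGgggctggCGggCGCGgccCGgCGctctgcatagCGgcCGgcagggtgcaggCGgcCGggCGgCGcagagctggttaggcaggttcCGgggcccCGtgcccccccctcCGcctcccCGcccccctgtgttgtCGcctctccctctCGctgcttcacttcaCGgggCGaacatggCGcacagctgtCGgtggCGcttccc
KMT2B: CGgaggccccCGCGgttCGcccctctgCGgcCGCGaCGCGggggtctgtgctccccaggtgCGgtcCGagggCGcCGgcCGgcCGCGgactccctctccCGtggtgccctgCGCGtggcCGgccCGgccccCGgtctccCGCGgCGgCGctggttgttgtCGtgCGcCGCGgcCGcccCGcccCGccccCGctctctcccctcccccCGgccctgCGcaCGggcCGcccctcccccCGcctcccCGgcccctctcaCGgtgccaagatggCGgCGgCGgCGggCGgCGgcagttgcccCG
The KMT2A window held 36 CpG and the KMT2B window 48, more than in 87.3% and 98.0% of the 35116 promoter windows of the table.

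KMT2C and KMT2D, the enhancer-associated paralogs, differed from each other. At KMT2C (chromosome 7, 152133090) a single knockout peak of 380 bp covered the start site, with 432 tags (392 to 475) and its summit 94 bp downstream. The control domain, from 152128573 to 152136710, had 2740 tags (2638 to 2845) over 8138 bp. It had more tags per kb, 337, than any other of the 10 control domains and than 99.7% of control peaks. The knockout peak, at 1137 tags per kb, was in the middle of its own list, above 51.6% of knockout peaks. The window of KMT2C, chr7:152435954-152436253 of GRCh38.p14 on the minus strand, is shown because its start site lay inside a knockout peak and it was the most CpG-rich of the set, with 56 CpG and a GC content of 88.7%.
KMT2C: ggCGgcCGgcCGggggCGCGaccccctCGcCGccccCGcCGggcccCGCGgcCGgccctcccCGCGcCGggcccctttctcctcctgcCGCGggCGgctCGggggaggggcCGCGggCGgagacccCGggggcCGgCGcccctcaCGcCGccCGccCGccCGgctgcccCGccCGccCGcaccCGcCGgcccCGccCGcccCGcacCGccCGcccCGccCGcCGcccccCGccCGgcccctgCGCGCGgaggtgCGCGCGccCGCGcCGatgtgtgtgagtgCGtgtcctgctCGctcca

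At KMT2D (chromosome 12, 49449107) the knockout IP had 2234 tags (2142 to 2329) in 462 bp, in a peak that began 59 bp downstream of the start site, and 48 tags (35 to 64) in a 300 bp peak with its summit 1100 bp upstream. The first was the densest knockout peak of the set, at 4835 tags per kb, above 99.4% of the knockout list, and the second was the weakest of the 14. The control domain had 2036 tags (1949 to 2126) over 9350 bp, from 49448449 to 49457798. It reached only 658 bp downstream and 8691 bp upstream, with its summit 4917 bp upstream, on the side where RHEBL1 is the next protein-coding gene in RefSeq order. A further knockout peak of 2313 bp with 447 tags lay in that upstream arm, with its near edge 3600 bp from the start site. It was the nearest knockout peak outside the 2 kb limit and is not counted among the 14. The summit of the strongest knockout peak thus lay near the downstream end of the domain, 5207 bp from the control summit.

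SETD1A and SETD1B, the paralogs tied to bulk promoter trimethylation, were the only genes of the 10 with no knockout peak in reach. Their control domains had the fewest and the most tags of the set. At SETD1A (chromosome 16, 30968615) the nearest knockout peak was 7916 bp upstream, and the control domain, from 30967483 to 30972384, had 846 tags (790 to 905) over 4902 bp with its summit 715 bp downstream. The next control domain upstream was smaller, with 613 tags over 3456 bp, and that one did hold a knockout peak, with 445 tags in 300 bp. At SETD1B (chromosome 12, 122242638) the nearest knockout peak was 73930 bp from the start site. The control domain, from 122226059 to 122252014, had 5524 tags (5379 to 5672) over 25956 bp. Its high count went with its width: at 213 tags per kb it lay within the range of the 10 domains, from 173 at SETD1A to 337 at KMT2C.

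The SETD1B domain was wider than 99.9% of control peaks and ranked 22 by tags. Of the 22 control peaks with at least that many tags, 21 held a knockout peak. That cut was set by the SETD1B domain itself, the last of the 22. The count says only that this domain had the most tags of the 26250 control peaks without a knockout peak. It was also atypical in shape, reaching 16579 bp upstream and 9376 bp downstream, with its summit 11333 bp upstream, on the side of RHOF, the neighbouring protein-coding gene in RefSeq order. In the authors' deposited table its fold enrichment over input was 68.57, against 82.05 to 142.78 for the other 9 domains, and its score was 1262.63, where the other 9 had the ceiling of 3100. The SETD1A window, chr16:30957504-30957803 of GRCh38.p14 on the plus strand, is shown as the sequence of a start site without a knockout peak. It held 30 CpG.
SETD1A: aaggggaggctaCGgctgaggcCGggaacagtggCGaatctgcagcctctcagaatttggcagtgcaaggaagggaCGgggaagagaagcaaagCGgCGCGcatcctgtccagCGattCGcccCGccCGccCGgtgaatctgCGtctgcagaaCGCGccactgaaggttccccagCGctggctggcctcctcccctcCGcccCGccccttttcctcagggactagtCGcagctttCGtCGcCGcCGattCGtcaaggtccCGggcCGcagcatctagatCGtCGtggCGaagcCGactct
A peak list does not give the tags outside peaks, so the absence of a peak at these genes is not a count of 0.

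The genes of the shared subunits had knockout peaks on the start site itself. At WDR5 (chromosome 9, 137001210) the knockout IP had 2669 tags (2569 to 2772) in 1 peak of 1271 bp, from 137000457 to 137001727, the widest and most tag-rich of the 14. The control IP had 2422 tags (2326 to 2520) over 8591 bp, from 136997590 to 137006180. The summits nearly coincided, 274 bp downstream in the knockout and 328 bp in the control, 54 bp apart, the closest of any knockout peak in the set. RefSeq gives 4 promoter windows for WDR5, with 6, 16, 31 and 45 CpG. The most CpG-rich, chr9:134136171-134136470 of GRCh38.p14 on the plus strand, is shown because WDR5 had the most knockout tags.
WDR5: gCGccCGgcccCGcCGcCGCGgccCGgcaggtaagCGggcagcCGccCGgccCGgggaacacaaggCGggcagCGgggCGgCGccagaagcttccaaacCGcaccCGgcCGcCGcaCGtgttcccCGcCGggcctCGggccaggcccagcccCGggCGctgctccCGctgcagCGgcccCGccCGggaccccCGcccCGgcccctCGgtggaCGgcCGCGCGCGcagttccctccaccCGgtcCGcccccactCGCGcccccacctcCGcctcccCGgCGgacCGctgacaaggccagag

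At ASH2L (chromosome 8, 37963311) the knockout IP had 845 tags (789 to 904) in a 300 bp peak from 270 bp upstream to 29 bp downstream, and 346 tags (310 to 384) in a 361 bp peak with its summit 758 bp upstream. The control IP had 1105 tags (1041 to 1172) over 5928 bp, from 37959759 to 37965686. ASH2L was the only gene of the 8 with every knockout summit upstream of the start site, while its control summit lay 401 bp downstream.

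The demethylase genes were unlike each other. At KDM5A (chromosome 12, 498620) the knockout IP had 739 tags (687 to 794) in a 300 bp peak over the start site and 747 tags (694 to 803) in a 450 bp peak with its summit 948 bp downstream. The control IP had 1268 tags (1199 to 1340) over 6095 bp, from 494569 to 500663, with its summit 427 bp downstream, between the knockout summits. At KDM5B (chromosome 1, 202777549) the knockout IP had 100 tags (81 to 122) in a single 300 bp peak with its summit 875 bp downstream. The control IP had 2726 tags (2625 to 2830) over 12078 bp, from 202771538 to 202783615, with its summit 1206 bp downstream. KDM5B thus had the second widest control domain of the 10 and the fewest knockout tags of the 8, in a peak that covered 2.48% of the domain.

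**Figure D3:**
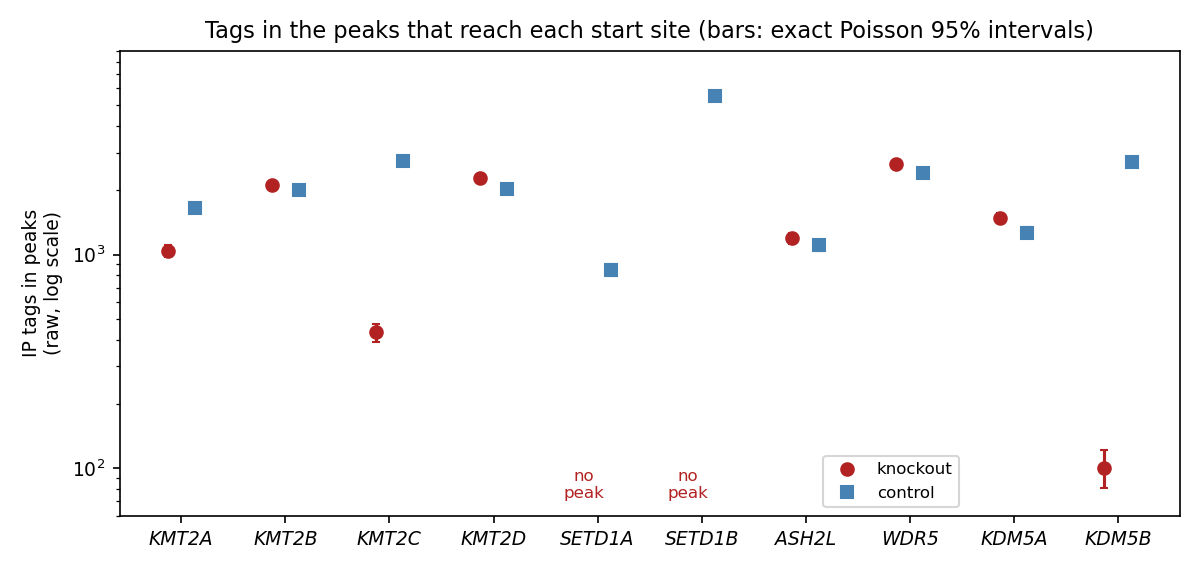
Raw IP tags (log scale) in the peaks within 2 kb of each start site, summed per gene, for the knockout (red circles) and the control (blue squares), with exact Poisson 95% intervals, mostly smaller than the symbols. The knockout symbols lie close to the control symbols for KMT2B, KMT2D, ASH2L, WDR5 and KDM5A and far below them for KMT2C, at 432 against 2740 tags, and KDM5B, at 100 against 2726.

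Set side by side, the raw tags, not scaled for depth, fell into 3 patterns. KMT2B, KMT2D, ASH2L, WDR5 and KDM5A had between 105% and 117% as many knockout as control tags. KMT2A had 63.0%, KMT2C 15.8% and KDM5B 3.67%. SETD1A and SETD1B had no knockout peak. KMT2B, KMT2D, ASH2L, WDR5 and KDM5A had the same order by knockout tags as by control tags. They were grouped here by their near-equal ratios, which largely set a shared order in advance, so the order is not a separate result. The match of orders did not hold over the whole set. The 3 domains with the most control tags, SETD1B, KMT2C and KDM5B, were among the 4 genes with the fewest or no knockout tags in peaks.

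These tags are sums over regions called separately in each library: at KDM5B, 300 bp of knockout peak stands against 12078 bp of control domain, and at KMT2C 380 bp against 8138 bp. Knockout tags elsewhere in a domain are not counted in the list, so the ratios below compare called peaks and are not fold changes of the mark over the same stretch. For a scale shared with other regions, the log2 of knockout over control tags (pseudocount 1) was centred on its median over the 7552 control peaks matched by exactly 1 knockout peak. The centred ratio was -2.21 (-2.36 to -2.06) for KMT2C and -4.30 (-4.62 to -4.02) for KDM5B, lower than in all but 10.2% and 2.03% of the 10427 control domains with any knockout peak. The sign was negative for both under all 5 alternative scalings and definitions tried, but not all of these could have turned it. A knockout peak anywhere in the domain left both values unchanged, a pseudocount of 0.5 barely changed them, and raw uncentred tags only lowered every ratio. Divided by the library totals, the ratio was -1.61 for KMT2C and -3.70 for KDM5B. Per kb of peak width it was -1.31 and -2.49. The ratio was 0.53 for KMT2B, 0.56 for ASH2L, 0.60 for WDR5, 0.62 for KMT2D and 0.68 for KDM5A, a span smaller than the spread of the matched pairs, whose SD was 1.96. For KMT2A it was -0.21 (-0.32 to -0.10). The sign of 3 of these smaller values depended on the scaling: per kb of peak width KMT2B and WDR5 were negative, at -0.42 and -0.17, and KMT2A was positive, at 0.38, when tags were divided by the library totals. For ASH2L, KMT2D and KDM5A it was positive under all 5 alternatives, of which only raw tags and tags per kb could have turned it. With raw uncentred tags the ratio was 0.11, 0.16 and 0.23, and per kb it was 0.21, 0.72 and 0.18.

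The centred ratio was -1 or less for 2 of the 8 genes, KMT2C and KDM5B, against 24.5% of all control domains with a knockout peak. It was 1 or more for 0 of the 8, against 27.9%. Divided by the library totals and not centred, the ratio was 1 or more for 5 of the 8, against 42.6% of such domains, and -1 or less for 2, again KMT2C and KDM5B, against 16.0%. With 8 genes, these counts are given as a description, and nothing particular to the genes is read from them.

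Most control summits lay on the transcribed side of the start site, and knockout peaks lay on both sides of it or across it. The control summit was downstream in 8 of the 10 genes, by 272 to 1206 bp, and upstream in KMT2D and SETD1B. Of the 14 knockout summits, 8 were downstream and 6 upstream. Of the 11316 knockout tags, 5195 (45.9%) were in the 5 peaks wholly downstream, 4685 (41.4%) in the 4 peaks across the start site and 1436 (12.7%) in the 5 peaks wholly upstream. The start site itself lay in a knockout peak at KMT2C, ASH2L, WDR5 and KDM5A and outside every knockout peak at KMT2A, KMT2B, KMT2D and KDM5B. The distance from a knockout summit to the control summit of the same gene was 54 to 5207 bp, with a median of 979.5 bp, against a median of 568 bp for all knockout peaks inside control peaks. The control domains of the 10 genes were also wider, with a median of 8003.5 bp against 5464 bp for all control peaks with a knockout peak. Whether width accounts for the distance was not tested. The knockout peaks inside a domain covered between 2.48% of it, at KDM5B, and 32.9%, at KMT2D, with a median of 12.5% over the 8 genes, against 10.4% over all control peaks with a knockout peak. This counts every knockout peak in the domain, so at KMT2D it includes the 2313 bp peak that is not among the 14. The next highest share was 16.8%, at KMT2B.

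By the richest window of each gene, the promoters of the set held more CpG than the median promoter window. CpG richness is a sequence feature typical of broad H3K4me3. Of the 10 genes, 8 had a RefSeq window. The count of CpG in the window, or in the richest of the 4 for WDR5, ran from 20 in KDM5A to 56 in KMT2C with a median of 35, against a median of 14 over all 35116 windows. The lowest were less marked: KDM5A had more than 58.8% of windows and KMT2D, with 27, more than 71.8%. The WDR5 value is a highest of 4 set against single windows. The count did not separate start sites inside a knockout peak from those outside one. Inside, it was 56 for KMT2C, 45 for WDR5 and 20 for KDM5A. Outside, it was 48 for KMT2B, 36 for KMT2A, 34 for KDM5B, 30 for SETD1A and 27 for KMT2D. Whether the RefSeq start is the hg19 start site used for the peaks was not tested.

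**Figure D4:**
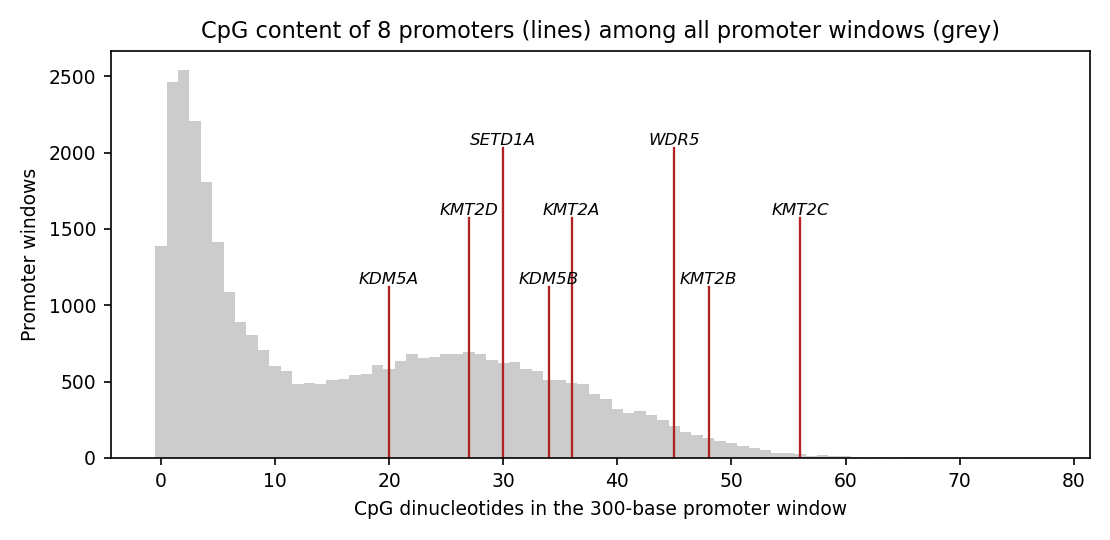
CpG dinucleotides per 300-base RefSeq promoter window (x axis) against the number of windows (y axis), for all 35116 windows (grey bars), with red lines at the 8 genes of the set that had a window. The lines run from 20 to 56, all above the median of 14, with the richest of its 4 windows used for WDR5.

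Short motifs were searched on both strands of the same windows as plain letter matches. The GC box GGGCGG, bound by SP and KLF factors, was in all 8 genes, in 1 or more window each, and in 45.0% of all windows. The letters of the TATA box, TATAAA, were in 0 of the 8 and in 11.5% of all windows. CCGGAAG, a core of ETS factor motifs, was in KDM5A and WDR5 and in 10.3% of all windows. CCAAT was in WDR5 alone and in 34.6% of all windows, CGCNTGCGC (NRF1) in WDR5 alone and in 7.52%, and AAGATGGC (YY1) in KMT2B alone and in 2.89%. WDR5 had 4 windows, so it had more chances of a match than the others.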

How the data were processed

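H3K4me3 ChIP-seq was analysed for 4 libraries, grouped by their titles, through 1 peak list per genotype, each from 1 IP with no pooling. Per the submitters' processing notes, Bowtie2 2.2.4, MACS 1.4.3 and hg19 were used. Per the file headers, adapters were trimmed (cutadapt) and MACS called each IP against the input of its genotype at a p cutoff of 0.0001 with a fragment length of 300 bp, scaling the larger library to the smaller. The deposited tag counts are raw IP tags per peak. The deposited score is the negative log10 of the peak's p, times 10. It was identified by its place and minimum, since its column name was lost. The deposited fold enrichment is a ratio of IP to local background, and the deposited false discovery rates are in percent. All of these are the peaks' own values from the authors, and the last 3 served only to describe or filter peaks within a list. The sources used here do not give whether duplicates were removed, and copies of 1 fragment count as separate tags.

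Peaks were assigned at 1 bp of overlap with 2 kb either side of each start site. Tags have exact Poisson intervals, shares exact Clopper-Pearson intervals and ratios exact binomial intervals, at 95%. The overlap and ratio steps were tested on simulated data. Python 3.11.15 was used with scipy 1.17.1, pandas 2.3.3, numpy 2.4.6 and matplotlib 3.10.9. All 10 genes are named. Promoter sequences were shown for the gene without a knockout peak and with the most control tags (SETD1B, not in the RefSeq table used), the gene with the most knockout tags (WDR5) and their paralogs (SETD1A). Those of KMT2A, KMT2B and KMT2C were added after their values were seen. The genes, lists and alternatives were chosen with earlier results of these data known. Strand came from RefSeq, and for ASH2L and SETD1B from general knowledge. Other H3K4 methylation genes and the ARID1A locus were not analysed here, because no hg19 annotation was used.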

Additional observations from a re-analysis of the deposited data

How the results depend on the processing

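All 10 genes had a control peak under every window and threshold tried. The number with a knockout peak, 8 as reported, was 7 within 1 kb (KMT2A dropped out) and 7 when knockout peaks of 300 bp were left out (KDM5B dropped out), 8 at 5 kb, anywhere in the control domain and under stricter false discovery rate, p and fold limits, and 4 when a peak had to cover the start site, which is fewer by construction. The median of 1338.5 knockout tags was 1191 within 1 kb. The median log2 ratio over the 8 genes, 0.55 as reported, was 1.14 after division by the library totals, 0.090 with raw tags, both not centred, and -0.30 per kb of peak width. The single-gene ratios that turned sign were KMT2A (0.38 with library totals) and KMT2B and WDR5 (-0.42 and -0.17 per kb). For KMT2C the alternatives ran from -2.66 to -1.31 and for KDM5B from -4.75 to -2.49. Of all control peaks 28.4% held a knockout peak as reported, and 46.1% at a false discovery rate of 1% or less, 37.7% at a MACS p of 1e-10 or less, 29.3% at a fold enrichment of 10 or more, 30.0% with a peak within 1 kb and 77.0% among control peaks with at least the tags of the SETD1A domain, the last added after the values were seen. The cause of these shifts was not tested. No paired analysis was possible because each group has 1 library, and for the same reason no replicate could be left out. The intervals cover counting error only and leave out variation between cultures.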

Other observations

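Outside the 2 kb windows, 9 further control peaks lay within 15 kb of the 10 start sites, beside KMT2A, KMT2B, KMT2D, SETD1A, WDR5 and KDM5A, and 4 of them held a knockout peak. Those 4 had 479 to 684 control tags, and the 5 without had 36 to 583. The knockout peaks in them had 457 tags beside KMT2A, 812 beside KMT2B, 445 beside SETD1A and 226 beside KDM5A. The control peak with 583 tags, upstream of KMT2D, was the strongest of the 5 without one. Beside SETD1A, the smaller upstream control domain of 613 tags held a knockout peak and the domain of 846 tags over its start site did not.

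Among the 22 control peaks with at least as many tags as the SETD1B domain, 5 had a score below the ceiling in the authors' deposited table, the SETD1B domain among them.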
